A study of Mus musculus with 6 samples.

Results

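The genes described here encode the subunits of the respiratory chain and of the ATP synthase of mitochondria, and their mRNA was measured in adipose tissue of cavin-3 null mice. Members were taken by symbol: Nduf genes with a subunit number, Ndufab1, and symbols that start with Sdha, Sdhb, Sdhc, Sdhd, Uqcr, Cyc1, Cox4 to Cox8 or Atp5, with the muscle and brown fat isoforms Cox8b, Cox7a1 and Cox6a2 left out. The rule found 84 of the 19937 genes measured, namely 34 in complex I, 4 in complex II, 9 in complex III, 14 in complex IV, 17 in complex V and 6 that match by name but are not subunits. Among the further symbols that match in the RefSeq mouse table, 19 are pseudogenes. Genes that lie only on probe sets with several symbols, such as Cox7c and Ndufb4, were not analysed here.

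Total RNA came from 3 cavin-3 KO mice and 3 WT litter mates, all 10 weeks old, on standard chow and fasted for 6 h, with one Affymetrix Mouse Gene 1.0 ST array for each mouse. In KO mice the whole cavin-3 gene was exchanged for a lacZ/neo cassette in every cell of the body, through 1 clone of C57BL/6N ES cells, so no cell type was targeted. Cavin-3 is a protein of the caveola coat, and the arrays were run to ask what its loss does to mRNA levels in fat. Neither the labels nor the methods name the fat depot. With 3 arrays a group the precision is limited by their number. The p-values and intervals measure the spread between these mice, which includes the differences between arrays described below.

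Complexes I and II pass electrons from NADH and succinate to ubiquinone, complex III passes them on to cytochrome c, and complex IV hands them to oxygen. Complexes I, III and IV pump protons, and complex V, the ATP synthase, makes ATP as the protons flow back. A few subunits are encoded in mitochondrial DNA, and all the members here are encoded in the nucleus. White adipocytes hold fewer mitochondria than brown adipocytes, which are packed with respiratory chain and uncouple it from ATP synthesis through Ucp1, and skeletal muscle is also rich in these complexes.

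All values are log2 intensities of one probe set for each gene, and a difference is KO minus WT on that scale, with the standard error (SE) from limma. Intensities of different probe sets are not comparable, so only the same gene is compared between arrays. Cavin3, the deleted gene, had values of 6.79, 6.78 and 7.12 on the KO arrays and 10.05, 10.90 and 10.45 on the WT arrays, a difference of -3.57 (0.0843-fold, 95% interval 0.0578 to 0.123, limma adjusted p = 0.0409), which matches the labels on all 6 arrays. Array medians were alike, at 68.4 to 69.4 on the KO arrays and 67.1 to 70.8 on the WT arrays (linear intensity). All 19 white adipocyte markers measured lay above the median probe set on every array.

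A pair of arrays stood apart. KO replicate 3 and WT replicate 2 had Xist at 11.34 and 11.15, against 3.70 to 6.30 on the other 4 arrays, and the Y-linked gene Uty at 3.21 and 3.36, against 7.89 to 8.14, while the methods state that only male animals were analysed. The same arrays were high in skeletal muscle mRNA and in part of the brown adipocyte mRNA. Of 17 brown and beige adipocyte markers, 14 were highest of the KO arrays on KO replicate 3 and 11 highest of the WT arrays on WT replicate 2, which was the lowest of all arrays for 2 of them. Ucp1 had values of 4.31, 4.52 and 8.75 in KO tissue and 4.50, 8.56 and 4.35 in WT tissue, and each of the 18 muscle markers was highest of its genotype on KO replicate 3 and on WT replicate 2. The results below are therefore given with and without these arrays. The other 4 arrays were not uniform either, since KO replicate 2 and WT replicate 1 were high in the epididymis genes Adam7 and Rnase9, with values given below. WT replicate 2 was also the highest and KO replicate 3 the lowest array for many subunit genes, and the part of sex-linked, brown fat and muscle mRNA in those values was not tested.

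Subunit mRNA was slightly lower in KO than in WT adipose tissue for most members, by amounts that mostly lay below the larger range within a genotype. The difference was negative for 75 of 84 members (89.3%), against 49.7% of all genes, and its median was -0.11, against 0.00085 over all genes. The range was narrow, from -0.43 for Ndufb2 (0.744-fold) to 0.11 for Ndufa4l2 (1.08-fold), and 66 members differed by less than 0.2 in either direction. The larger of the ranges within KO and within WT exceeded the difference between genotypes for 82 of 84 members. The share over all genes was not taken for this measure, and a range is wider than an SD. Averaged over the members, the arrays of a genotype had an SD of 0.10, about the size of the median difference. Atp5k differed by -0.30 with SDs of 0.095 in KO and 0.187 in WT tissue, and Atp5b by 0.03 with SDs of 0.04 and 0.16.

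No member passed the test. At an adjusted p under 0.05 limma called 0 of 84 members, against 2 of all 34760 probe sets (0.00575%), and the members' adjusted p was 0.99999. At an unadjusted p under 0.05, 3 members were lower in KO (3.57%, against 0.477% of all genes) and 0 were higher (against 0.361% of all genes). In both directions together 0.838% of all genes passed, fewer than this threshold gives on average with no difference between genotypes. The limma p-values here were thus conservative, and a high p is weak evidence of no difference. The methods' t-test on log2 values gave 2 members, both lower in KO (2.38%, against 1.74% of all genes in either direction), so its share was near that of all genes. All 3 KO arrays lay below all 3 WT arrays for 6 members (7.14%, against 2.53% of all genes) and above them for 0 (against 2.08% of all genes). For 70 of 84 members (83.3%, against 83.7% of all genes) the 95% interval of the fold lay within 1.5-fold of no difference. The other 14 had lower bounds between 0.534-fold (Uqcr11) and 0.663-fold (Atp5k), so a decrease beyond 1.5-fold lay inside their intervals, and no member's interval reached a 1.5-fold increase.

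The lower KO mean came mainly from 2 of the 6 arrays. WT replicate 2 was the highest of all arrays for 61 members (72.6%, against 22.1% of all genes), and KO replicate 3 was the lowest for 40 (47.6%, against 16.9% of all genes), and for 33 members both held. Relative to each gene's mean, the KO arrays averaged -0.02, -0.02 and -0.12 over the members and the WT arrays 0.0048, 0.21 and -0.05. Apart from these 2 arrays the genotypes were therefore close, and WT replicate 2 was the lowest array for 0 members.

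**Figure D1:**
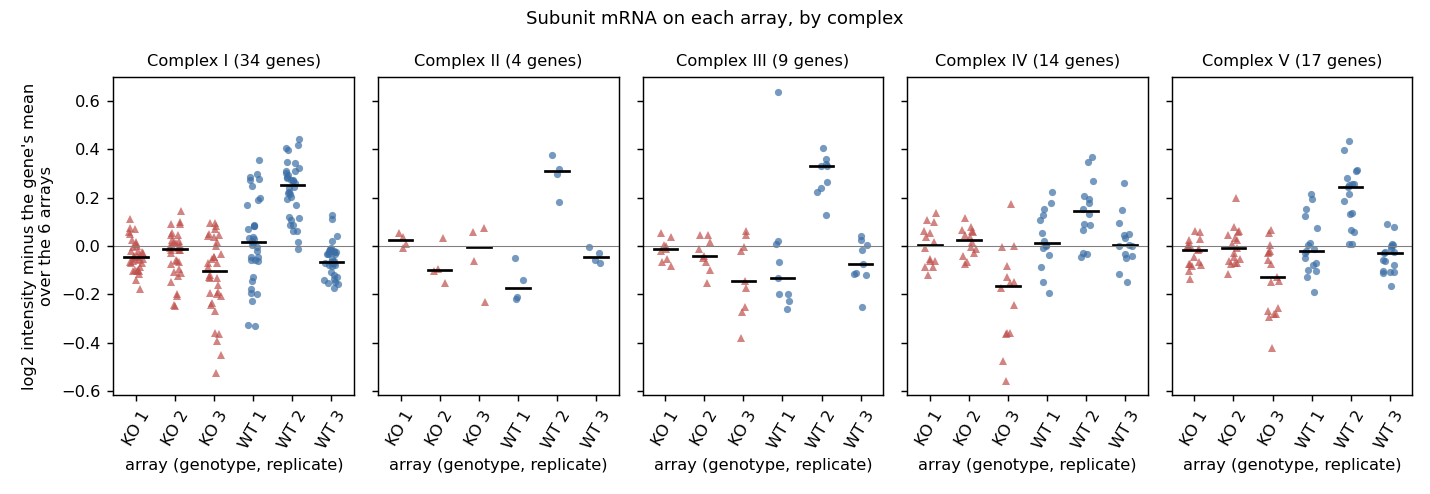
Each point is a subunit gene on one array, as log2 intensity minus the mean of that gene over the 6 arrays, by complex, with KO arrays as triangles, WT arrays as circles and the median as a line. On WT replicate 2 lie the highest values of 27 of 34 complex I, 4 of 4 complex II, 8 of 9 complex III, 7 of 14 complex IV and 13 of 17 complex V genes, and KO replicate 3 is lowest for 10 of 14 complex IV genes.

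Leaving out WT replicate 2 brought the count of members lower in KO to 47 of 84 and the median to -0.017, and 28 members turned sign. Without KO replicate 3 the count was 68 and the median -0.07. Without both arrays 36 members were lower and the median was 0.012, against 51.3% of all genes lower and a median of -0.0037. In contrast, leaving out any of the other 4 arrays kept 69 to 77 members lower in KO. The count at an unadjusted p under 0.05 was 0 when KO replicate 3, WT replicate 1 or WT replicate 2 was left out or when the 2 arrays that stood apart were, and it was 10 (11.9%, against 1.45% of all genes) when WT replicate 3 was. For the 61 members highest on WT replicate 2 and the 40 lowest on KO replicate 3, leaving that array out can only raise the difference. The shifts without these arrays, here and for single genes below, are therefore a description and no test.

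**Figure D2:**
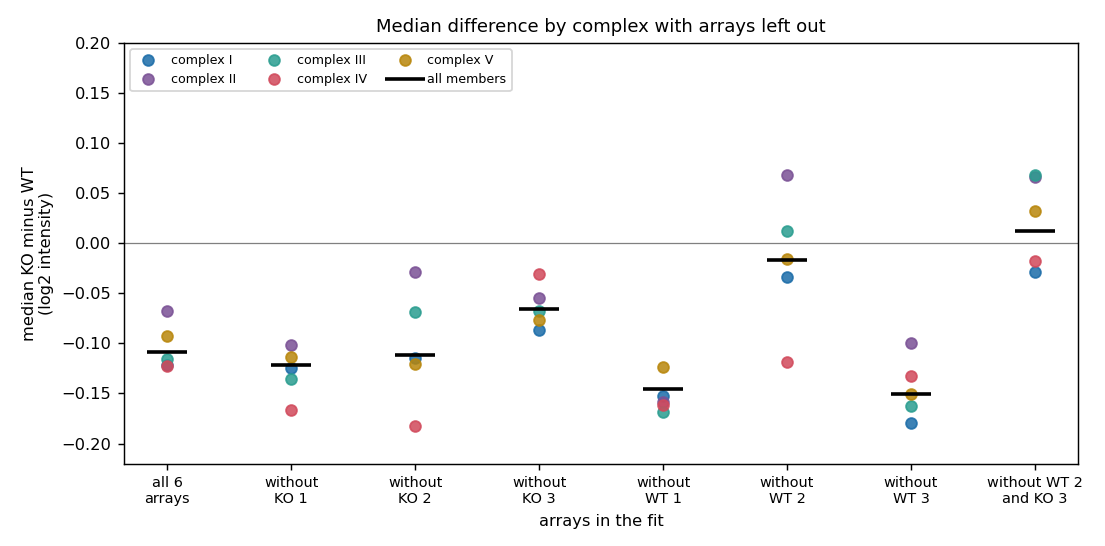
Median KO minus WT difference (log2 intensity) over the genes of each complex (points) and over all 84 members (black line) with all 6 arrays and with the named arrays left out. The median over all members is -0.11 with all arrays, -0.017 without WT replicate 2 and 0.012 without WT replicate 2 and KO replicate 3.

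KO replicate 3 and WT replicate 2 could also be set against each other, a comparison chosen after the values had been seen and one that has no test, since it is 1 array against 1. The members were lower on KO replicate 3 for 76 of 84 genes with a median of -0.34, against 9599 of 19937 genes and a median of 0.01 over all genes. Other mitochondrial lists were lower there too, with 16 of 17 genes of the tricarboxylic acid cycle and pyruvate dehydrogenase (median -0.36), 37 of 43 assembly factors (-0.26) and 13 of 16 carriers (-0.18). Among the markers of other tissues, 7 of 17 brown and beige adipocyte genes (median 0.01) and 9 of 18 skeletal muscle genes (0.03) were lower on KO replicate 3, and the 13 endothelial genes averaged 9.58 on KO replicate 3 and 9.27 on WT replicate 2.

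Many nuclear genes of the chain carry binding motifs of the transcription factors NRF1, NRF2 (an ETS factor, Gabpa with Gabpb1) and YY1 near their start sites, and the promoters of members are shown for that reason. RefSeq windows of 250 bases before to 50 bases after the start (build GRCm38.p6) were found for 69 of 84 members, and both strands were searched. The NRF1 motif, GCGCA and GCGC with any base between them, was in the windows of 18 of 69 members (26.1%, against 7.17% of 17492 protein-coding genes), the ETS motif CCGGAAG in 20 (29.0%, against 12.9%) and the YY1 motif ATGGCGNC in 15 (21.7%, against 6.19%). As a description, the median difference was -0.12 in the 18 members with the NRF1 motif and -0.10 in the 51 without, -0.07 with the ETS motif and -0.12 without, and -0.11 with the YY1 motif and -0.11 without. A match is a run of letters and says nothing of binding in this tissue. The 60-base stretches below hold a match in capitals, written 5′ to 3′ on the strand of the gene, for 5 of the 6 members with the most negative differences (the window of Ndufb2 held no match) and for Sdhd of complex II. In Atp5l CTTCCGG is the ETS motif read on the other strand.
Ndufa5 (NRF1 motif, chr6:24527691-24527750, minus strand): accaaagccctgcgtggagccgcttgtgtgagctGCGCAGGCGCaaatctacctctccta
Ndufa11 (NRF1 motif, chr17:56717677-56717736, plus strand): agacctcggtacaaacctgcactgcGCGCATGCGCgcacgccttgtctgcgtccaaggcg
Atp5k (NRF1 motif, chr5:108434415-108434474, minus strand): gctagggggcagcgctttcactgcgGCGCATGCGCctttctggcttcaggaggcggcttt
Sdhd (NRF1 motif, chr9:50603894-50603953, minus strand): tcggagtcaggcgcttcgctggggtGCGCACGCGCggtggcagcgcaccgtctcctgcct
Uqcr11 (ETS motif, chr10:80406854-80406913, minus strand): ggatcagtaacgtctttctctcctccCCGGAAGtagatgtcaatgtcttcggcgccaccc
Atp5l (ETS motif, chr9:44920921-44920980, minus strand): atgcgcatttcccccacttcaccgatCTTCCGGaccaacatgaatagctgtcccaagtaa
The first base of the motif lay 50 bases before the start site in Atp5k, 60 in Ndufa11, 79 in Sdhd, 66 in Uqcr11 and 212 in Atp5l. For Ndufa5 the table gives 2 start sites, and the same motif lay 26 bases before one and 190 bases before the other.

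Complex I is the largest complex and takes electrons from NADH. Of its 34 genes 31 had a lower mean in KO, with a median of -0.12, and none passed the adjusted test. Its 6 measured core subunits, which carry the flavin and the iron-sulphur clusters or bind beside them, were split, with 3 lower and 3 higher and a median of -0.02. The 28 supernumerary subunits, which surround the core and are needed for assembly and stability, were all lower, with a median of -0.14. A dimmer probe set of Ndufb11, not used here, gave 0.03. Without WT replicate 2, 20 of the 28 subunits were lower, and 17 of 28 without KO replicate 3 as well.

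Ndufa5, an accessory subunit of the matrix arm whose promoter stretch is shown above, had the smallest unadjusted p of the members. Its values were 7.67, 7.54 and 7.51 on the KO arrays and 7.99, 8.04 and 7.71 on the WT arrays, so the groups did not overlap. The difference was -0.34 (SE 0.12), or 0.790-fold (95% interval 0.650 to 0.961), with an unadjusted p of 0.0254 and an adjusted p of 0.99999 in limma. It was -0.28 without WT replicate 2 and -0.24 without both arrays, so the sign stayed while the unadjusted p moved to 0.0772 and 0.158. WT replicate 3 was closest to the KO arrays.

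Ndufb2, an accessory subunit of the membrane arm, had the most negative difference, at -0.43 (SE 0.18, limma unadjusted p = 0.0563). The KO arrays read 7.29, 7.08 and 6.96 and the WT arrays 7.68, 7.76 and 7.16, and WT replicate 3 lay below KO replicate 1. Ndufa11, another membrane arm subunit, read 9.25, 9.40 and 8.82 in KO tissue and 9.51, 9.74 and 9.33 in WT tissue, a difference of -0.37 (SE 0.18). Its second probe set gave -0.30. KO replicate 3 was lowest for both genes, and the differences were -0.24 for Ndufb2 and -0.10 for Ndufa11 without the 2 arrays that stood apart.

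Ndufb10, also of the membrane arm, did not overlap between genotypes, with 7.19, 7.29 and 7.05 in KO tissue and 7.37, 7.54 and 7.33 in WT tissue. The gap between the groups was small, since KO replicate 2 lay just under WT replicate 3, and the difference was -0.23 (SE 0.11, limma unadjusted p = 0.0647). Ndufb7, Ndufa1, Ndufs4 and Ndufb6 had differences of -0.29, -0.27, -0.24 and -0.24, each with overlapping groups. Ndufs4, a subunit whose loss in mice causes a severe brain disease, read 10.41, 10.40 and 10.48 in KO tissue and 10.82, 10.77 and 10.41 in WT tissue. Here the KO arrays were close to each other and WT replicate 3 was level with them. Ndufab1, the mitochondrial acyl carrier protein, differed by -0.11, and the other supernumerary genes lay between -0.19 (Ndufb3) and -0.01 (Ndufb9).

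The core subunits did not share a direction. Ndufv1, which binds NADH and the flavin, read 10.05, 9.99 and 9.81 in KO tissue and 9.61, 10.25 and 9.93 in WT tissue, a difference of 0.02 (95% interval of the fold 0.758 to 1.35). WT replicate 1 was the lowest and WT replicate 2 the highest of all arrays, so the WT arrays spanned the KO arrays. Ndufs8 and Ndufs7, which carry iron-sulphur clusters on the path to ubiquinone, differed by 0.04 and 0.04, and Ndufs7 was the most positive gene of complex I. Ndufs1, Ndufs3 and Ndufv2, the remaining core subunits measured, differed by -0.13, -0.10 and -0.05. Of the 6 core genes 5 were highest on WT replicate 2, and without it 2 of 6 were lower in KO with a median of 0.06.

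Complex II, succinate dehydrogenase, is shared by the chain and the tricarboxylic acid cycle and has no subunit from mitochondrial DNA. All 4 genes were lower in KO in the mean, with a median of -0.07, and all 4 were highest on WT replicate 2. Sdha, the flavoprotein that oxidises succinate, read 11.10, 10.99 and 11.16 in KO tissue and 10.95, 11.27 and 11.06 in WT tissue. Sdhb, the iron-sulphur subunit, read 9.68, 9.67 and 9.41 in KO tissue and 9.43, 10.02 and 9.63 in WT tissue. The KO arrays lay inside the span of the WT arrays for Sdha, and for Sdhb KO replicate 3 was just below it, with differences of -0.01 for Sdha and -0.11 for Sdhb. The membrane anchors Sdhc and Sdhd differed by -0.12 and -0.03. Without WT replicate 2 the sign turned for all 4 genes and the median was 0.07.

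Complex III moves electrons from ubiquinol to cytochrome c. All 9 genes had a lower mean in KO, with a median of -0.12, and WT replicate 2 was highest for 8 of them. The exception was Uqcr11, the smallest subunit, which was highest on WT replicate 1. It read 9.49, 9.49 and 9.17 in KO tissue and 10.19, 9.68 and 9.30 in WT tissue, a difference of -0.34 (SE 0.23), and its second probe set gave -0.35. Its SE was the largest among the members, and WT replicate 3 lay below KO replicates 1 and 2. Without WT replicate 1 the difference was -0.11.

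The redox subunits of complex III had smaller differences. Cyc1, cytochrome c1, read 10.08, 10.09 and 9.83 in KO tissue and 9.88, 10.48 and 10.10 in WT tissue, a difference of -0.15 that was 0.01 without WT replicate 2. Uqcrfs1, the Rieske iron-sulphur protein, differed by -0.12, and the core proteins Uqcrc1 and Uqcrc2 by -0.03 and -0.01. For Cyc1, Uqcrc1 and Uqcrc2 WT replicate 1 was at or near the bottom of all arrays and WT replicate 2 at the top. Of the small subunits Uqcrq differed by -0.18, Uqcr10 by -0.12, Uqcrb by -0.08 and Uqcrh by -0.02. Without WT replicate 2, 2 of 9 genes were lower in KO and the median of the complex was 0.01, and without KO replicate 3 as well it was 0.07.

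Complex IV, cytochrome c oxidase, reduces oxygen. Of its 14 genes 13 were lower in KO in the mean, with a median of -0.12, and Ndufa4, once counted with complex I and now held to be a complex IV subunit, was grouped here. In this complex KO replicate 3 weighed more than WT replicate 2, being the lowest array for 10 of 14 genes with a mean of -0.21 relative to the gene means. Accordingly the median stayed at -0.12 without WT replicate 2, was -0.03 without KO replicate 3 and was -0.02 without both.

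Cox4i1, the common isoform of a regulatory subunit, read 10.25, 10.23 and 9.59 in KO tissue and 10.32, 10.34 and 10.15 in WT tissue. KO replicates 1 and 2 lay among the WT values and KO replicate 3 alone was low, so the difference of -0.25 (SE 0.19) was -0.03 without that array. Cox6a1, of which Cox6a2 is the muscle form, was also low mainly on KO replicate 3, with 10.57, 10.47 and 9.95 in KO tissue and 10.54, 10.59 and 10.48 in WT tissue, and differences of -0.20 with all arrays and -0.02 without KO replicate 3. Ndufa4 read 10.16, 10.04 and 9.74 in KO tissue and 10.26, 10.37 and 10.05 in WT tissue, a difference of -0.25 (SE 0.14). It overlapped between genotypes because WT replicate 3 lay below KO replicate 1.

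Cox5a, a subunit on the matrix side, had no overlap between genotypes, with 8.99, 8.999 and 8.64 in KO tissue and 9.002, 9.37 and 9.01 in WT tissue. KO replicates 1 and 2 nonetheless lay just under WT replicates 1 and 3, and the difference of -0.25 (SE 0.15, limma unadjusted p = 0.154) was -0.01 without the 2 arrays that stood apart. Cox8c, a testis isoform, also did not overlap, with 5.75, 5.77 and 5.66 in KO tissue and 5.83, 5.90 and 5.96 in WT tissue. Cox8c and Cox7b2, another testis gene, were the only 2 of the 84 members that were not above the median probe set on every array. The hypoxia and lung isoform Cox4i2 differed by -0.08, and the testis isoform Cox6b2 by -0.0040. The common counterpart of Cox6b2, Cox6b1, differed by -0.19. Among the other common subunits Cox7a2 differed by -0.13, Cox8a by -0.03, Cox5b by -0.11 and Cox6c by -0.05. Cox7b was the 1 gene of the complex with a higher mean in KO, at 0.07.

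Complex V has a catalytic head in the matrix, a rotor with a ring of c subunits in the membrane and a stator that holds the head. Of its 17 genes 14 were lower in KO in the mean, with a median of -0.09, and 2 of the 3 members with an unadjusted p under 0.05 belonged to it. Atp5k and Atp5l encode the small membrane subunits e and g, which take part in joining ATP synthases into dimers.

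Atp5k, whose promoter stretch holds the NRF1 motif shown above, read 8.04, 7.9999 and 7.86 on the KO arrays and 8.31, 8.43 and 8.06 on the WT arrays. The difference was -0.30 (SE 0.12), or 0.813-fold (95% interval 0.663 to 0.996), with an unadjusted p of 0.0466 and an adjusted p of 0.99999 in limma. All KO values lay below all WT values, though KO replicate 1 was only just under WT replicate 3. Atp5l read 10.17, 10.20 and 9.98 in KO tissue and 10.48, 10.58 and 10.21 in WT tissue, a difference of -0.31 (SE 0.13, limma unadjusted p = 0.0488, adjusted p = 0.99999). Here too the groups did not overlap and WT replicate 3 was next to the KO arrays. The 4 other probe sets of Atp5l gave -0.34, -0.32, -0.40 and -0.11. RefSeq lists pseudogenes of both Atp5k and Atp5l, and whether a probe set reads the gene or a near-identical copy cannot be told from the files. The same limit holds for other members with listed pseudogenes, among them Ndufa12, Ndufab1, Cox5b, Uqcrh and Atp5pb. Without WT replicate 2 the difference was -0.22 for Atp5k and -0.23 for Atp5l, and without both arrays it was -0.17 and -0.16.

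The catalytic head differed less. Atp5b, the beta subunit that carries the catalytic sites, read 12.27, 12.21 and 12.18 in KO tissue and 12.02, 12.34 and 12.22 in WT tissue, a difference of 0.03 (95% interval of the fold 0.854 to 1.22). Atp5a1 (alpha) differed by -0.09, Atp5c1 (gamma) by -0.12, Atp5d (delta) by 0.05 and Atp5e (epsilon) by -0.09. None of the 5 head and stalk genes had a 95% interval that reached 1.5-fold in either direction. The 3 genes for the same c subunit protein, Atp5g1, Atp5g2 and Atp5g3, differed by 0.02, -0.09 and -0.20. Other probe sets of Atp5g2 gave -0.33 and 0.02. Among the stator and membrane subunits other than Atp5k and Atp5l, Atp5mpl had the most negative difference at -0.26. Atp5o, Atp5pb, Atp5h, Atp5j, Atp5j2 and Atp5md lay between -0.17 and -0.03.

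**Figure D3:**
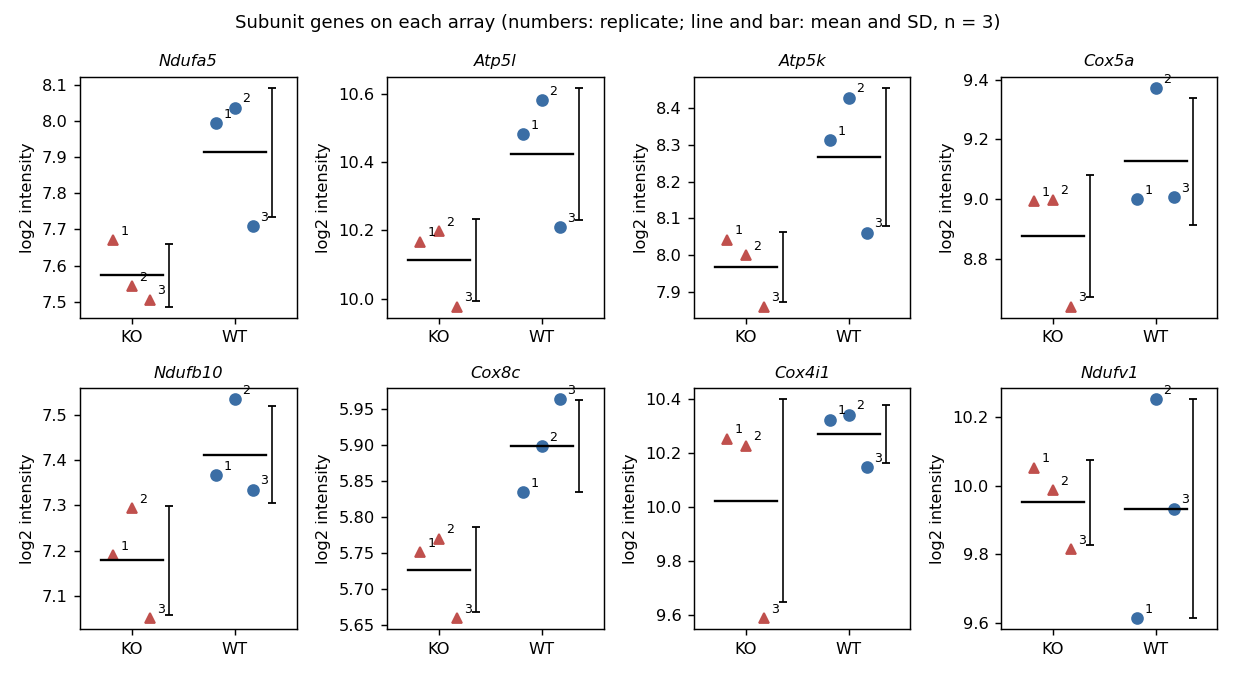
Log2 intensity of 8 subunit genes on each array, with KO as triangles on the left, WT as circles on the right, the replicate number beside each point, and the mean and SD of each group (n = 3). The first 6 genes are those whose KO values all lie below the WT values, Cox4i1 is low only on KO replicate 3, and the WT values of Ndufv1 span its KO values.

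**Figure D4:**
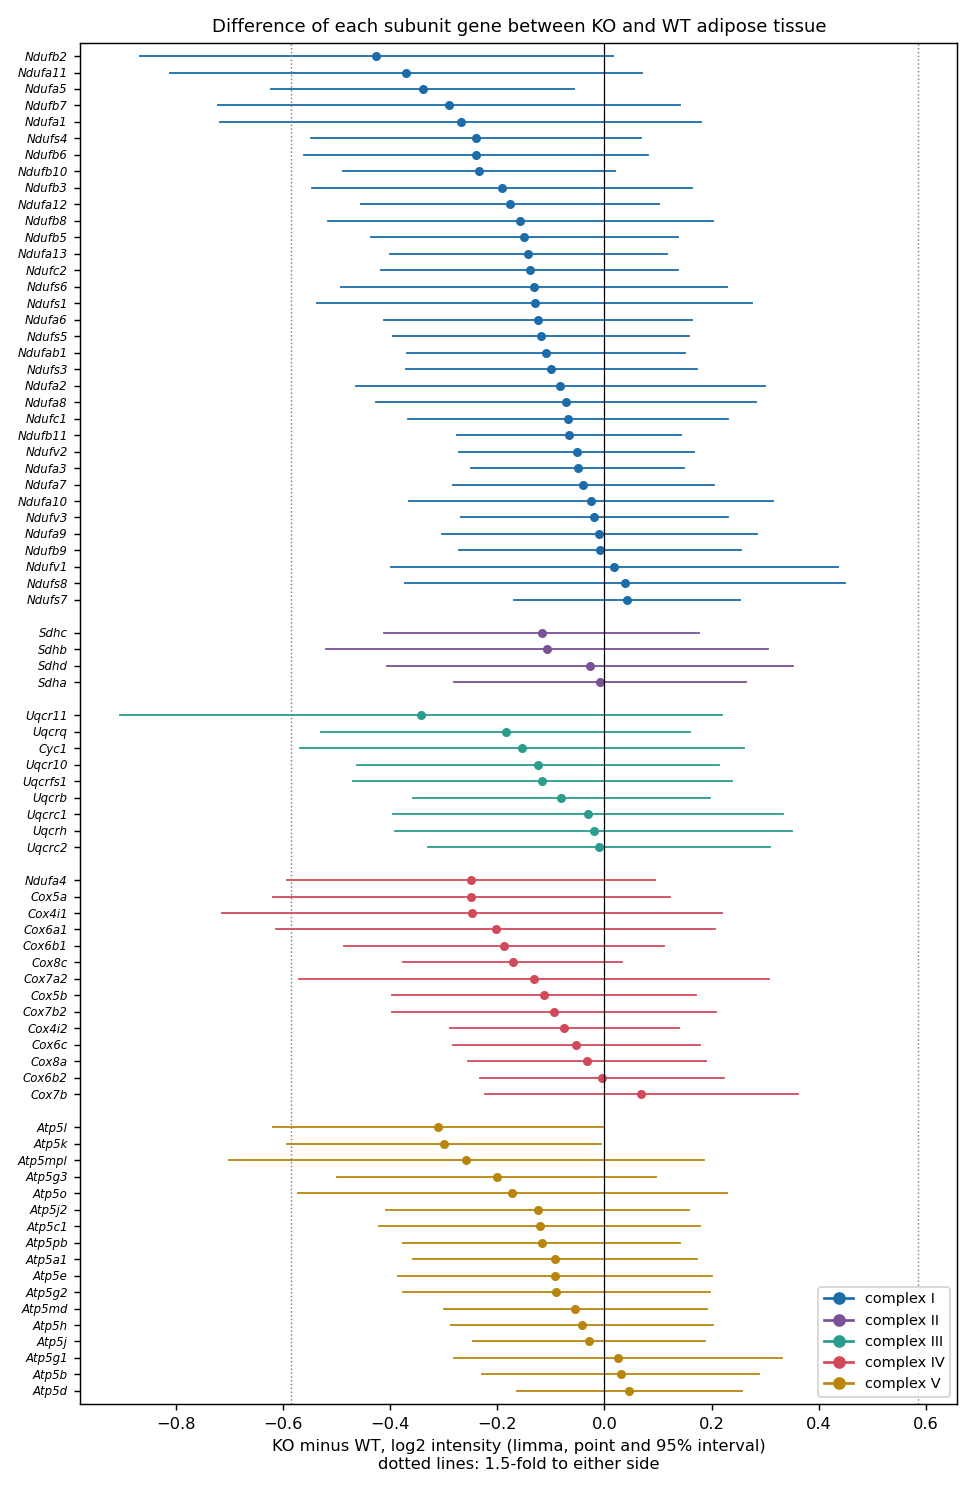
KO minus WT difference in log2 intensity for the 78 subunit genes, by complex, as the limma estimate (point) with its 95% interval (line), and dotted lines at 1.5-fold to either side. Of these genes 71 lie left of 0, the most negative being Ndufb2 at -0.43, and only the intervals of Ndufa5, Atp5l and Atp5k exclude 0.

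The 6 members that are not subunits were less one-sided. Sdhaf1 to Sdhaf4 help to assemble complex II, and they differed by -0.03, 0.09, -0.04 and -0.24. Ndufa4l2, a hypoxia-induced relative of Ndufa4, read 6.83, 6.82 and 6.88 in KO tissue and 6.61, 6.62 and 6.97 in WT tissue and had the most positive difference of the members, at 0.11. WT replicate 3 was nonetheless its highest array. Cox7a2l, which links complexes III and IV into supercomplexes, differed by -0.01, while its other probe set gave -0.20. With these 6 left out, 71 of 78 genes were lower in KO and the median was -0.11.

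The isoforms left out by the rule were high on both arrays that stood apart. Cox8b, the isoform of brown fat and muscle, read 8.64, 8.24 and 10.34 in KO tissue and 8.08, 10.45 and 7.46 in WT tissue, a difference of 0.41 (SE 0.88). Cox7a1 read 7.22, 7.36 and 8.27 in KO tissue and 7.04, 8.79 and 6.83 in WT tissue, and Cox6a2 read 6.65, 6.52 and 7.62 in KO tissue and 6.63, 7.68 and 6.77 in WT tissue. Each was highest on KO replicate 3 among the KO arrays and on WT replicate 2 among the WT arrays. Their common counterparts did not share this on the KO side, where Cox8a, Cox7a2 and Cox6a1 were lowest on KO replicate 3.

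Further genes of oxidative metabolism were counted over whole lists. Of 43 measured assembly factors of the complexes, 4 of which are the members Sdhaf1 to Sdhaf4, 29 were lower in KO with a median of -0.04, and of 17 genes of the tricarboxylic acid cycle and pyruvate dehydrogenase 13 were lower with a median of -0.04. Of these, 28 of 43 and 14 of 17 were highest on WT replicate 2. Without it, 17 of 43 and 3 of 17 were lower in KO. The pyruvate dehydrogenase gene Pdhb read 8.79, 8.57 and 8.71 in KO tissue and 8.79, 9.64 and 8.73 in WT tissue, a difference of -0.37 (limma unadjusted p = 0.189) that was -0.07 without WT replicate 2, the 1 array on which it was high. Suclg1, of succinyl-CoA ligase, differed by -0.34 (limma unadjusted p = 0.0585). Cox18 and Cox17, assembly factors of complex IV, differed by -0.23 and -0.24, with no overlap between genotypes for Cox18.

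Among 16 carriers of electrons and metabolites 14 were lower in KO with a median of -0.06. Without WT replicate 2 it was 6 of 16 with a median of 0.01, and without KO replicate 3 as well 7 of 16 with a median of 0.03. Cycs, the cytochrome c that carries electrons between complexes III and IV, read 10.98, 11.06 and 11.06 in KO tissue and 11.64, 11.61 and 11.07 in WT tissue, a difference of -0.40 (SE 0.16, limma unadjusted p = 0.0474, adjusted p = 0.99999). Its KO arrays were close together, WT replicates 1 and 2 were high, and WT replicate 3 was level with the KO arrays and just above them. The channel Vdac3 differed by -0.19, again with no overlap between genotypes. Of the subunits that mitochondrial DNA encodes, ND3 and COX2 were measured, and they differed by -0.0032 and -0.04. Both were bright, with means of 12.56 and 12.43 in KO tissue, and whether differences are compressed at such intensities was not tested.

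Regulators of mitochondrial genes were close to evenly split, with 7 of 16 measured lower in KO and a median of 0.02. Nrf1, Gabpa and Yy1, whose motifs were searched above, differed by 0.03, 0.02 and -0.10, and the coactivators Ppargc1a and Ppargc1b by 0.08 and -0.19. Tfam, which packages mitochondrial DNA and takes part in its transcription, differed by -0.10. It was the 1 regulator of 16 with no overlap between genotypes. Nrf1 here is the nuclear respiratory factor.

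Markers of cells that a fat sample can hold are given beside these results for the whole lists. The 17 brown and beige adipocyte genes had summed intensities of 2014 to 4136 on the KO arrays and 1931 to 4157 on the WT arrays, with 15 of 17 higher in KO and a median difference of 0.08. The 18 skeletal muscle genes had sums of 1615 to 8943 on the KO arrays and 1176 to 8323 on the WT arrays, with 14 of 18 lower in KO and a median of -0.08. Both counts rested on single arrays, since leaving out 1 array at a time gave 2 to 13 brown and beige adipocyte genes and 0 to 18 muscle genes lower in KO. Without KO replicate 3, 13 of 17 brown and beige adipocyte genes were lower in KO (median -0.11), and without WT replicate 2 it was 3 of 17 (0.13). Of the muscle genes 17 of 18 were lower in KO without KO replicate 3 (median -0.86) and 0 of 18 without WT replicate 2 (0.84). In both lists the top of each range was KO replicate 3 or WT replicate 2, and no marker was listed at 0. White adipocyte genes had sums of 80224.5 to 83784.6 in KO tissue and 74015.6 to 84565.8 in WT tissue, with a median of 0.01 over 19 genes. Of 14 macrophage genes 10 were lower in KO, with a median of -0.05. Of 13 endothelial genes 11 were higher in KO, with a median of 0.10, and 8 were lowest of all arrays on WT replicate 2, where most members were highest. Of 10 genes of epididymis epithelium 5 were lower, with a median of -0.0037, and the list averaged 5.05 on KO replicate 2 and 5.30 on WT replicate 1, against 4.12 to 4.27 on the other 4 arrays. The 2 high averages came mainly from Adam7 and Rnase9. Adam7 read 4.51, 9.19 and 3.75 in KO tissue and 10.33, 3.67 and 3.79 in WT tissue. Rnase9 read 2.94, 5.79 and 3.01 in KO tissue and 7.06, 2.90 and 3.18 in WT tissue. Medians of the list, relative to each gene's mean, differed little between arrays. They were 0.05 on KO replicate 2, 0.03 on WT replicate 1 and 0.06 on KO replicate 3. On the remaining arrays they lay between -0.12 and -0.10. The part of these cell types in the members' values was not tested. In bulk tissue, fewer cells of a type and less RNA per cell cannot be told apart.

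**Figure D5:**
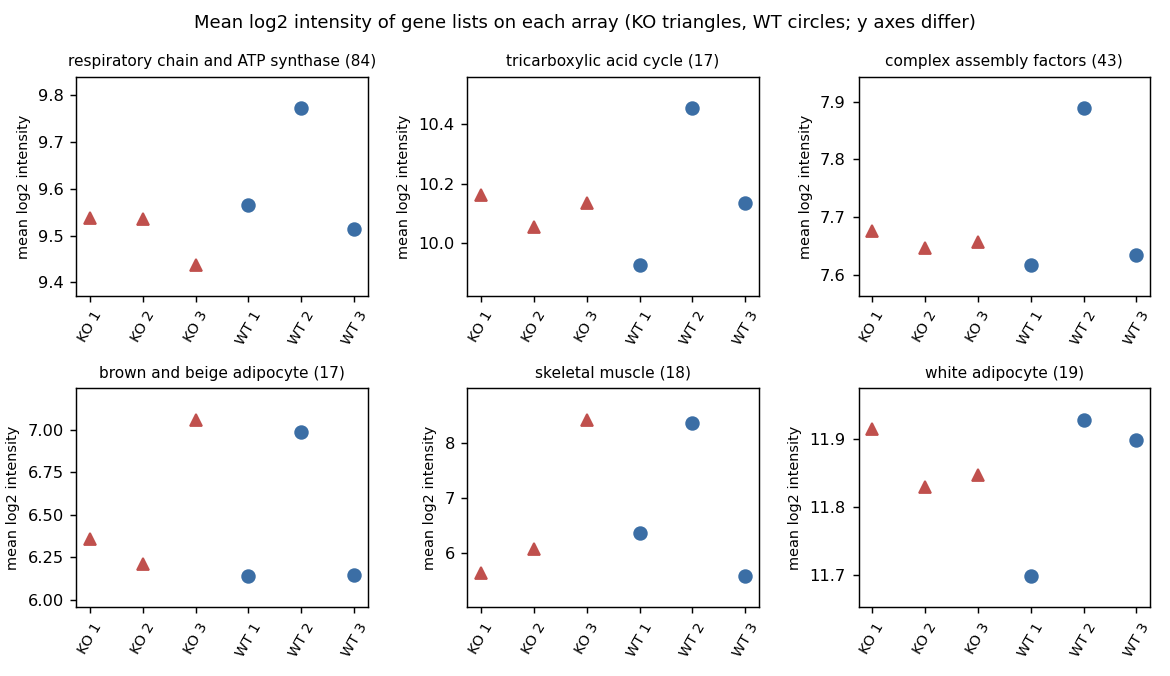
Mean log2 intensity of 6 gene lists on each array, with KO arrays as triangles and WT arrays as circles and the number of genes in brackets; the y axes differ. The members average 9.44 on KO replicate 3 and 9.77 on WT replicate 2, their lowest and highest arrays, while the muscle list averages 8.42 and 8.36 on the same arrays, both above the other 4.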

How the data were processed

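Adipose tissue RNA of 3 cavin-3 KO and 3 WT mice was hybridised to 6 Affymetrix Mouse Gene 1.0 ST arrays. The methods describe amplified, biotin-labelled cDNA and GenePattern modules, and the labels name a standard cRNA protocol instead. The authors deposited linear-scale intensity values, 1 for each probe set. RMA is named, with no version, in the submitters' processing notes. RMA corrects background and equalises the arrays, so a shift shared by most genes is removed. The genome build behind the probe sets was not given in the sources used here. Scanner files were not used here, and printed coordinates are those of RefSeq.

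The log2 of each intensity was fitted by genotype alone in limma 3.58.1 (lmFit and eBayes, R 4.3.3), with Benjamini and Hochberg adjustment over all 34760 probe sets. The methods' t-test (Student) was an alternative. Probe sets with 1 symbol (21640) were named from the platform annotation, and 21553 matched RefSeq (GRCm38.p6) with 0 names changed. A gene was read from its probe set with the highest mean, and 18 members had several probe sets. For 5 of them (Atp5g2, Atp5h, Atp5md, Ndufb11 and Uqcrb) the probe sets differ in sign. Folds are antilogs of the differences.

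The members, the 12 gene lists and the alternatives were chosen with earlier results of these data known. Members named by rule were those with an unadjusted p under 0.05 or groups that do not overlap, the 3 most negative and the 1 most positive in each complex, the catalytic subunits, the isoforms and the symbols that name no subunit, 47 in all. Of each other list the 2 genes with the smallest p were named. Other genes were named after their values were seen. The limma procedure was tested on simulated data.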

Additional observations from a re-analysis of the deposited data

How the results depend on the processing

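With each of the 11 alternatives besides leaving out arrays, 0 members were called at an adjusted p under 0.05. Those keeping all 84 members (quantile normalization, median centring, probe sets of 1 symbol only, array weights, trended and robust variances, the replicate block, the t-test on either scale, and the mean over probe sets) left 67 to 76 members lower in KO, with medians of -0.06 to -0.11. Without dim probe sets it was 73 of 82. The count at an unadjusted p under 0.05, 3 with all arrays, was 1 with median centring (1.19%, against 0.672% of all genes), 1 with array weights (1.19%, against 1.67%) and 7 with the replicate block (8.33%, against 0.697%). Replicate numbers did not pair the samples, since deviations of same-numbered arrays correlated at -0.15, -0.37 and -0.09 and no array correlated best with its own number. Across numbers the highest correlations were 0.52 (KO replicate 2 with WT replicate 1), 0.48 (KO replicate 3 with WT replicate 2) and 0.37 (KO replicate 1 with WT replicate 3). A fit with those pairs was not made.

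Leaving out 1 array, or WT replicate 2 and KO replicate 3 together, gave 0 to 10 members at an unadjusted p under 0.05, 36 to 77 lower in KO and 9 to 26 without overlap, while 0.507% to 1.45% of all genes passed the unadjusted p and 9.93% to 28.2% did not overlap. The medians ranged from -0.15 to 0.012 over the members, -0.17 to 0.068 in complex III, -0.18 to -0.018 in complex IV and -0.15 to 0.032 in complex V. The highest median of each of these ranges came without both arrays. In that setting 36 members were lower, 23 did not overlap (27.4%, against 28.2% of all genes) and 0 had an unadjusted p under 0.05 (against 1.40%). Without WT replicate 2 alone, 47 were lower. Without WT replicate 3, 10 passed the unadjusted p (11.9%, against 1.45%) and 26 did not overlap (31.0%, against 13.9%). With 2 arrays in a group, fewer values have to lie apart for groups not to overlap. The number of arrays limits all of these values, and signal over background was not judged here.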
